A study of Homo sapiens with 12 samples.

Results

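INHBE, the related inhibin beta subunit genes INHBA, INHBB and INHBC, the stress-induced ligand gene GDF15, the TGF-beta genes TGFB1 and TGFB2, and the follistatin genes FST and FSTL3 were followed in RCC4 cells. RCC4, a human line of clear cell renal carcinoma, has lost VHL function. The members are 9 genes with 17 probe sets, among 11963 genes with 19064 probe sets that name a single gene. They were chosen by name around INHBE, whose rise under erastin in cells with the control siRNA was known beforehand. INHBE is therefore described without a p or a call, and so are all members for erastin in those control cells. Tests of the members are those of the other 8 genes.

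RNA was measured on 12 Affymetrix arrays, 3 in each of 4 groups, described by the submitters as biological triplicates. All cells were transfected with an siRNA for 2 days and then treated for 7 hours. The siTAZ erastin group received an siRNA against WWTR1, the gene of the Hippo pathway coactivator TAZ, and then 1 µM erastin. The siTAZ vehicle group received the same siRNA and DMSO. The siNT erastin group received a non-targeting siRNA and 1 µM erastin. The siNT vehicle group received the non-targeting siRNA and DMSO. Erastin blocks the cystine importer of which SLC7A11 is a subunit, and can lead to ferroptosis. The study thus compared TAZ loss, erastin and their combination in a single cell line.

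Ligands of the TGF-beta superfamily are secreted dimers that bind pairs of serine/threonine kinase receptors, which then phosphorylate SMAD proteins. Activins are dimers of inhibin beta subunits: INHBA and INHBB encode the widely studied subunits, whereas INHBC and INHBE are best known from liver, where INHBE encodes the subunit of activin E. GDF15 is a distant relative that is induced by cell stress and acts on the brainstem receptor GFRAL. Follistatin (FST) and follistatin-like 3 (FSTL3) are secreted proteins that bind activins and keep them from their receptors. INHBE and GDF15 are both known as genes that the integrated stress response, through transcription factors such as ATF4 and CHOP, can turn on.

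The siRNA check came first. The brightest WWTR1 probe set had log2 signals of 9.09 to 9.46 on the 6 siTAZ arrays, against 12.19 to 12.35 on the 6 siNT arrays. Array medians were 6.48 to 6.54, and arrays of a group correlated at 0.9955 to 0.9985. The 9 renal tubule and RCC4 markers measured averaged 10.2 to 10.3 on every array, with PAX8 at 10.6 and VIM at 13.5. Markers of leukocytes averaged 4.23 to 4.53 over the arrays, with 6 of 7 genes near background. These markers helped to set the near-background bound given below, so their count under it was largely fixed in advance. Markers of hepatocytes, which did not enter the bound, averaged 4.40 to 4.72, with 8 of 9 near background and albumin (ALB) at 3.20. The log2 difference between the 3′ and 5′ actin control probe sets, a measure of RNA integrity, was 3.01 to 3.63 on siTAZ erastin arrays and 1.49 to 2.82 on siNT erastin arrays. It was 2.62 to 2.70 on siTAZ vehicle arrays and 2.40 to 2.97 on siNT vehicle arrays. Its ranges did not overlap between the siTAZ and siNT arrays under erastin, nor between the erastin and vehicle arrays of siTAZ cells. In these 2 comparisons treatment and RNA integrity cannot be fully told apart, with or without an adjustment. Calls gained or lost with it are given as a description. Results of both comparisons are therefore given with the actin difference as a covariate where that changes a call of a member. For the lists below it is mostly given as counts. The p-values of genes named from a list are from the fit without it, so their calls in these comparisons may be among those lost. For the GAPDH control probe sets the difference was 0.07 to 0.28 over the arrays, with overlapping ranges. Precision is limited by there being 3 arrays a group.

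A signal was called near background where its group mean lay under a log2 signal of 5.28. This bound is the 90th percentile of the mean signals of 28 probe sets for leukocyte, endothelial and erythroid markers, which a renal line should lack. Of all 19064 probe sets, 31.5% lay under it in all 4 groups. Of the 17 member probe sets, 8 did: the single probe set of INHBB, all 4 of TGFB2, and the dimmer probe set of INHBC, GDF15 and FST each. The remaining genes, INHBE, INHBA, INHBC, GDF15, FST, FSTL3 and TGFB1, had at least 1 probe set above the bound in some group. The plot of every probe set shows these levels, which depend on each probe set's own affinity and cannot be ranked across genes.

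**Figure D1:**
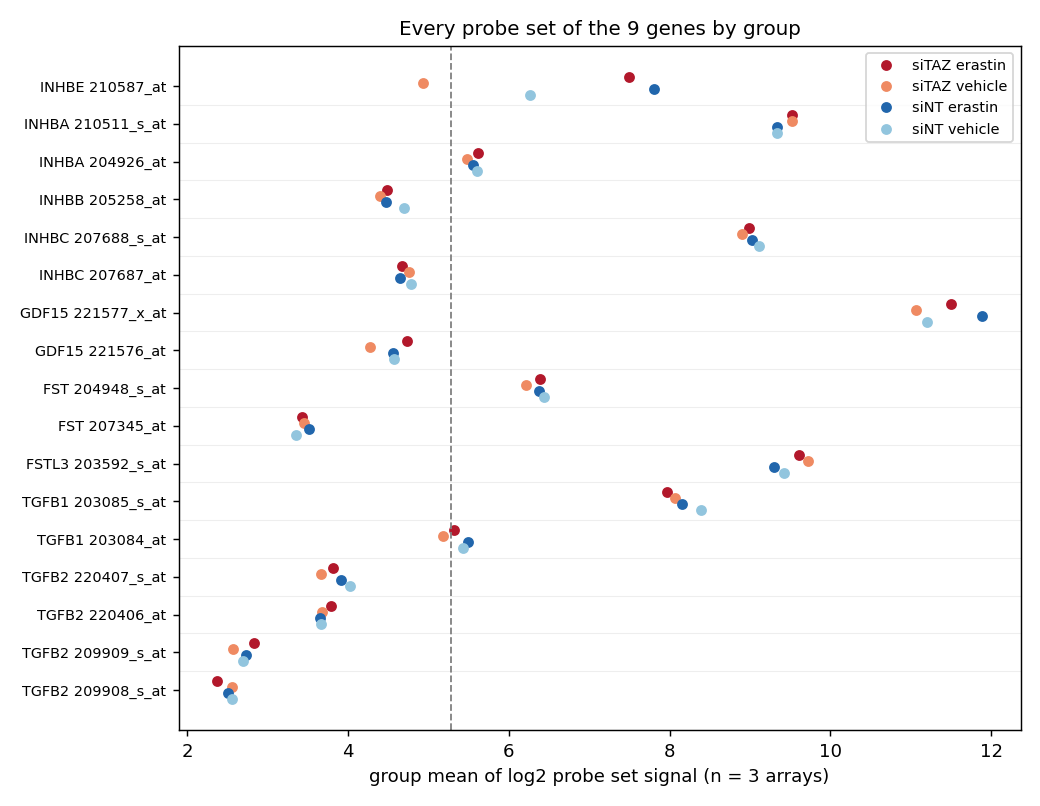
Group means of the log2 signal (horizontal axis) for each of the 17 probe sets, with 1 point per group of 3 arrays and the dashed line at the near-background bound of 5.28. INHBE spans the bound, with the siTAZ vehicle mean at 4.93 and the other 3 group means between 6.26 and 7.81, whereas the 4 TGFB2 probe sets stay left of the line in every group.

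Promoters are shown for the members other than INHBE that were called in some comparison, to set genes that rose and genes that fell side by side. Of the 9 members, 8 matched the RefSeq table of promoters (GRCh38.p14), which gives 250 bases before to 50 after each gene's start. Searched on both strands were TGATGNAA, the composite element bound by ATF4 and C/EBP, GGAATG for TEAD factors, the DNA-binding partners of TAZ, ACGTG for hypoxia-inducible factors, and TATAAA, the TATA box. Capitals mark the matches. In the genes' own direction the windows are chr19:18385908-18386207 on the plus strand for GDF15, chr19:676142-676441 on the plus strand for FSTL3, chr7:41703041-41703340 on the minus strand for INHBA and chr19:41353873-41354172 on the minus strand for TGFB1.
GDF15: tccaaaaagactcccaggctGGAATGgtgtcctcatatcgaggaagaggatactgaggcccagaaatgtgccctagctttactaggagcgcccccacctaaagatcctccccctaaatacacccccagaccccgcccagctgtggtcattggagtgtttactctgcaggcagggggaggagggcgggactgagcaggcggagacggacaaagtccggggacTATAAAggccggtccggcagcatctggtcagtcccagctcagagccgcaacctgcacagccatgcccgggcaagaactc
FSTL3: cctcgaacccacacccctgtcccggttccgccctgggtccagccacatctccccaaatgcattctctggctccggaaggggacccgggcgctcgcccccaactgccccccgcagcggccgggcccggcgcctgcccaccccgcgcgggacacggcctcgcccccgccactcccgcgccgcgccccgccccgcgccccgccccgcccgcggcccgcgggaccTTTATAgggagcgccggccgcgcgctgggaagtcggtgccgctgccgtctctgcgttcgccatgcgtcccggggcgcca
INHBA: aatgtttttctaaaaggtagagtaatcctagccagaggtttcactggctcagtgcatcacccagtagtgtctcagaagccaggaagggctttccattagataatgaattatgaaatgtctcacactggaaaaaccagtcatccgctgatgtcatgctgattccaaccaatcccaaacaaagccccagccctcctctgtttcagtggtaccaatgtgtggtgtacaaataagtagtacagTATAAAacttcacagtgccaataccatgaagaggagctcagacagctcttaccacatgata
TGFB1: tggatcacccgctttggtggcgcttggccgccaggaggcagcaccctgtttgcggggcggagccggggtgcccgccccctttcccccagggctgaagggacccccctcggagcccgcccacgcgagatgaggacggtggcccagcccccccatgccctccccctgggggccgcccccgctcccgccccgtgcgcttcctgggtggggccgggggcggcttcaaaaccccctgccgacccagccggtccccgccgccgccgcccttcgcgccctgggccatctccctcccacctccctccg

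GDF15 held GGAATG at -230 and TATAAA at -29 from its start, FSTL3 held TATAAA on the opposite strand at -29, and INHBA held TATAAA at -11. TGFB1 held none of the 4 motifs. Over the 8 members, TGATGNAA occurred in 0, against 3.62% of 35116 promoters, and TATAAA in 4, against 11.5%. GGAATG occurred in 2, GDF15 and TGFB2, against 14%, and ACGTG in 2, INHBC and TGFB2, against 21.4%. A match is a description of the letters in this window and does not show binding.

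INHBE had the most extreme erastin changes of the members and a single probe set, 210587_at. Its log2 signals were 7.43, 7.43 and 7.63 in siTAZ erastin cells and 4.97, 4.97 and 4.85 in siTAZ vehicle cells. They were 7.79, 7.58 and 8.06 in siNT erastin cells and 6.29, 6.25 and 6.24 in siNT vehicle cells. The erastin arrays were all higher than the vehicle arrays, the siTAZ vehicle arrays were the lowest of the 12, and the 2 erastin groups overlapped. In order of mean level, siNT erastin cells stood at 7.81 ± 0.24, siTAZ erastin cells at 7.50 ± 0.12, siNT vehicle cells at 6.26 ± 0.03 and siTAZ vehicle cells at 4.93 ± 0.07 (SD, n = 3 each).

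In siNT cells INHBE was higher with erastin than with vehicle by a log2 difference of 1.55 ± 0.10 (SE), or 2.93-fold. This was the difference for which the gene was chosen, and it ranked 2 from the top of 11963 genes. In siTAZ cells the vehicle mean lay under the near-background bound, so the fold there is a lower limit. Against the bound, INHBE was at least 4.66-fold higher in siTAZ erastin cells than in siTAZ vehicle cells. On the measured signals the log2 difference was 2.57 ± 0.10 and ranked 1 from the top, and it was 2.70 with the actin covariate. In vehicle, INHBE was at least 1.97-fold lower in siTAZ cells than in siNT cells, and the measured log2 difference was -1.33 ± 0.10. Under erastin the measured log2 difference between siTAZ and siNT cells was -0.31 ± 0.10, with overlapping arrays, and -0.09 with the actin 3′ to 5′ difference as a covariate.

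The erastin response of INHBE was larger in siTAZ than in siNT cells by a measured log2 value of 1.01 ± 0.14, which also ranked 1 from the top of 11963 genes. With the actin covariate the value was 1.24. With the siTAZ vehicle level set at the bound, the difference of the responses was at least 0.67. The limma fit called 0 of 19064 probe sets for this difference at a Benjamini-Hochberg adjusted p under 0.05 (background 0%), and 1163, or 6.1%, had an unadjusted p under 0.05. INHBE was lower on the siTAZ vehicle than on the siNT vehicle arrays, and the erastin arrays of both siRNA groups overlapped. Of 28 ATF4-driven genes, a list taken up below, 12 had an unadjusted limma p under 0.05 for this difference, in either direction. The median difference of that list was 0.16, beside 0.02 over all genes. SLC7A11 rose by 1.48 in siTAZ and 0.87 in siNT cells, whereas DDIT4 rose by 1.52 in both. A larger response in siTAZ cells was thus not seen in INHBE alone. In bulk RNA, fewer cells with a transcript and less transcript per cell cannot be told apart.

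**Figure D2:**
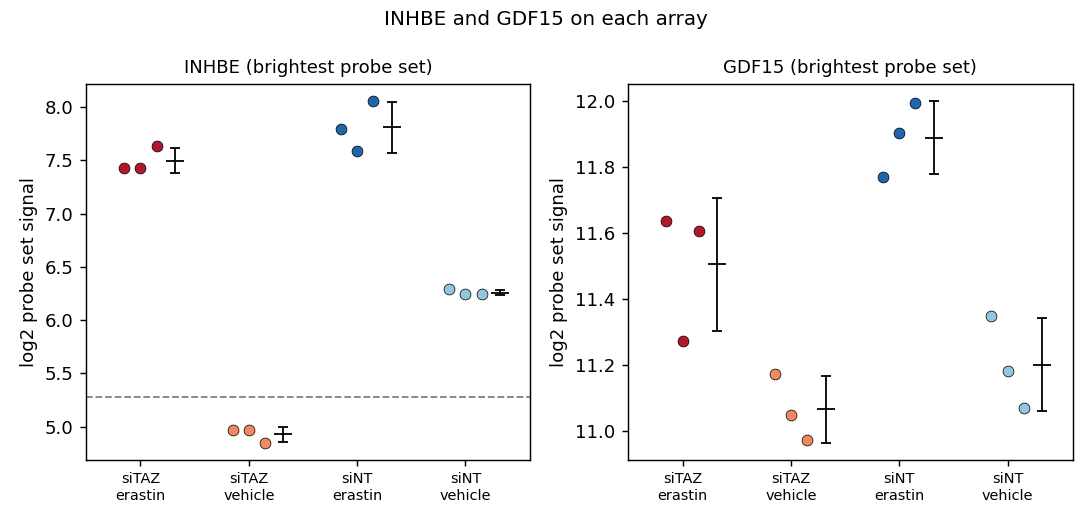
Log2 signal of the brightest INHBE (left) and GDF15 (right) probe set on each of the 12 arrays, with the group mean and SD (n = 3) beside the points and the near-background bound dashed in the INHBE panel. INHBE is lowest on the 3 siTAZ vehicle arrays, at 4.85 to 4.97, and GDF15 is highest on the 3 siNT erastin arrays, at 11.77 to 11.99.

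GDF15 was read from 221577_x_at, whose suffix marks probes that can also bind other transcripts. Its log2 signals were 11.64, 11.27 and 11.61 in siTAZ erastin cells and 11.17, 11.05 and 10.97 in siTAZ vehicle cells. They were 11.77, 11.90 and 11.99 in siNT erastin cells and 11.35, 11.18 and 11.07 in siNT vehicle cells. The siNT erastin arrays stood above all others, and the groups with erastin did not overlap their vehicle groups. Of all probe sets, 10% in siTAZ and 5.52% in siNT cells were higher with erastin without overlap. The second probe set, 221576_at, lay near background, with group means of 4.27 to 4.73, and was called in neither siTAZ comparison nor for erastin in siTAZ cells.

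Under erastin, GDF15 fell by 0.38 on the log2 scale in siTAZ relative to siNT cells (SE 0.11, limma adjusted p = 0.0191). The arrays did not overlap, as for 17.2% of all probe sets in that direction. With the actin 3′ to 5′ difference as a covariate, the GDF15 value was -0.12 (limma adjusted p = 0.516), and the call was lost. It was also lost without siNT erastin replicate 3 (adjusted p = 0.0636), without siTAZ erastin replicate 2 (adjusted p = 0.0767), with array weights (adjusted p = 0.0589) and with the compared groups alone in the fit (adjusted p = 0.0528). In vehicle, the siTAZ minus siNT difference was -0.13 ± 0.11 (SE, limma adjusted p = 0.431) with overlapping arrays.

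In siTAZ cells the erastin minus vehicle difference of GDF15 was 0.44 ± 0.11 (SE, limma adjusted p = 0.169), 42 from the top of 11963 genes. Adjusted for actin, it was 0.60 (limma adjusted p = 0.0191), and it was also called with trend and robust settings (adjusted p = 0.0425) and with array weights (adjusted p = 0.0340). In siNT cells the difference was 0.69 ± 0.11 (SE), 12 from the top. The responses differed by -0.25 ± 0.15 (SE, limma adjusted p = 0.799), and by 0.03 with the actin covariate (limma adjusted p = 0.985). A difference between them was thus not detectable with 3 arrays a group. The siNT response, for which no p is given, enters this value. Across the 12 arrays, which fall into 4 treatment groups, the brightest INHBE and GDF15 probe sets had a Pearson correlation of 0.863 and a Spearman correlation of 0.937, given as a description.

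Of the 8 member genes other than INHBE, the limma fit called 0 for erastin in siTAZ cells, against 0.376% of all genes, 0.343% being higher. At an unadjusted p under 0.05 there was 1, GDF15, against 9.04% of all probe sets. The median log2 change of the 8 genes was 0.09 in siTAZ cells, beside 0.01 over all genes, and -0.11 in siNT cells, beside -0.00. Without probe sets under the 25th percentile of mean signal it was 0.04 in siTAZ and -0.08 in siNT cells. Without those under the 50th it was -0.002 and -0.09. The activin, TGF-beta and follistatin genes other than INHBE were not called for erastin in siTAZ cells.

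**Figure D3:**
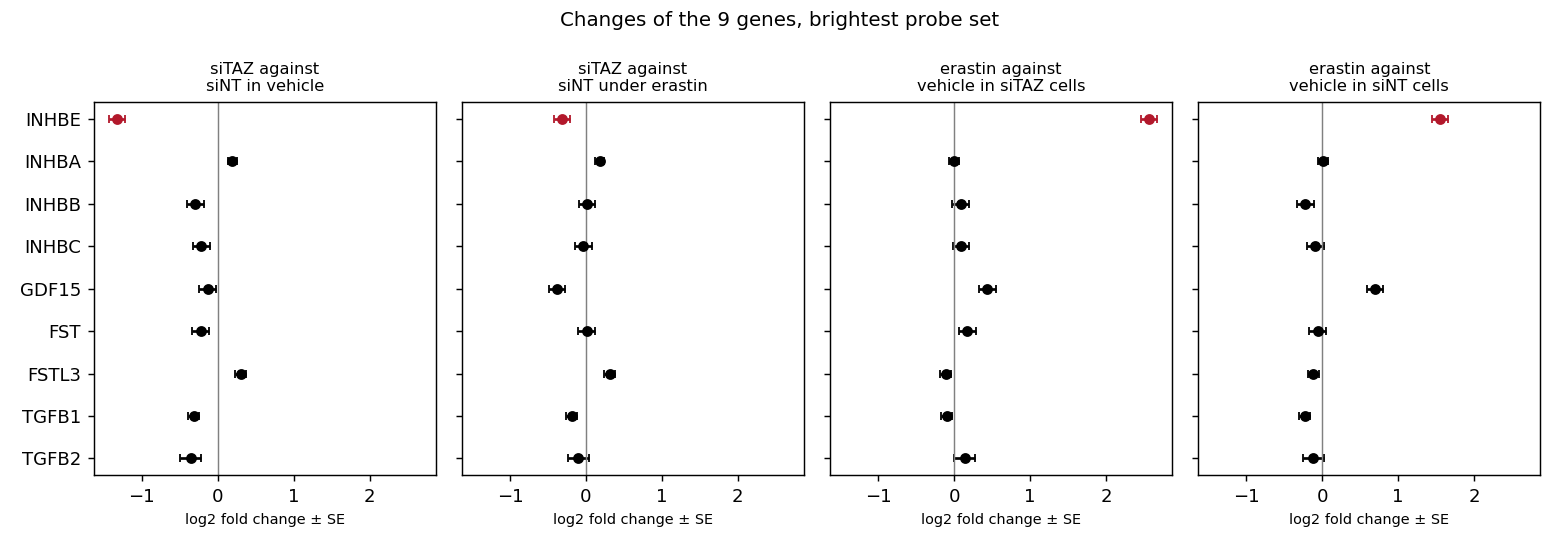
Log2 fold changes with SE (horizontal axis) of the brightest probe set of each of the 9 genes, in 4 panels for siTAZ against siNT cells in each treatment and for erastin against vehicle in siTAZ and in siNT cells. INHBE, in red, reaches 2.57 and 1.55 under erastin, GDF15 0.44 and 0.69, and the other 7 genes lie within 0.36 of 0 in all 4 panels.

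Silencing of WWTR1 changed several members in directions opposite to each other. In vehicle 3 of the 8 genes other than INHBE were called, INHBA and FSTL3 higher and TGFB1 lower, against 26.9% of all genes, of which 13.9% were higher and 13% lower. Under erastin 3 of the 8 were called, INHBA and FSTL3 higher and GDF15 lower, against 26.4% of all genes, of which 14.6% were higher and 11.8% lower. With that many genes passing the same test, the counts alone set the members little apart. The erastin count was 1 with the actin covariate, a lower INHBC, and 1 without siTAZ erastin replicate 2. The median log2 change of the 8 genes was -0.22 in vehicle, beside -0.01 over all genes, and -0.01 under erastin, beside 0.01. The vehicle median takes in near-background genes. It was -0.17 without probe sets under the 25th percentile of mean signal and -0.13 without those under the 50th.

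FSTL3, the activin-binding antagonist, rose with siTAZ in both settings. Its log2 signals on 203592_s_at were 9.65, 9.56 and 9.63 in siTAZ erastin cells and 9.46, 9.29 and 9.15 in siNT erastin cells. They were 9.70, 9.70 and 9.76 in siTAZ vehicle cells and 9.41, 9.48 and 9.37 in siNT vehicle cells. Every siTAZ array was above every siNT array. The log2 fold change was 0.30 ± 0.07 in vehicle (SE, limma adjusted p = 0.00904) and 0.31 ± 0.07 under erastin (SE, limma adjusted p = 0.00786). Adjusted for actin, the erastin value was 0.19 (limma adjusted p = 0.195). Erastin itself gave -0.11 ± 0.07 in siTAZ cells (SE, limma adjusted p = 0.670) and -0.12 ± 0.07 in siNT cells (SE).

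INHBA, which encodes the subunit of activin A, was slightly higher with siTAZ. On 210511_s_at its log2 signals were 9.55, 9.54 and 9.48 in siTAZ vehicle cells, against 9.36, 9.33 and 9.31 in siNT vehicle cells. Under erastin they were 9.44, 9.52 and 9.60 in siTAZ cells, against 9.25, 9.37 and 9.40 in siNT cells. The siTAZ arrays lay above the siNT arrays of the same treatment. The log2 fold changes were 0.19 ± 0.06 in vehicle (SE, limma adjusted p = 0.0404) and 0.18 ± 0.06 under erastin (SE, limma adjusted p = 0.0498). Both stood at the threshold, and leaving out any vehicle array ended the vehicle call, with adjusted p values of 0.0625 to 0.119. The erastin call was lost in 10 of the 12 fits that left out 1 array, and with the actin covariate the value was 0.25 (limma adjusted p = 0.0562). The dimmer probe set, 204926_at, had group means of 5.48 to 5.62 and changes of -0.12 and 0.07, and was not called.

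TGFB1, the ligand of the TGF-beta receptors TGFBR1 and TGFBR2, fell with siTAZ in vehicle. On 203085_s_at its log2 signals were 8.01, 8.14 and 8.06 in siTAZ vehicle cells, against 8.41, 8.49 and 8.27 in siNT vehicle cells. Under erastin they were 7.96, 7.93 and 8.03 in siTAZ cells, against 8.24, 8.07 and 8.17 in siNT cells. The siTAZ arrays were lower than the siNT arrays in each treatment. The log2 fold change was -0.32 ± 0.07 in vehicle (SE, limma adjusted p = 0.0052) and -0.19 ± 0.07 under erastin (SE, limma adjusted p = 0.0755). The erastin value was called in 5 alternatives, with adjusted p values of 0.0184 after median centring, 0.0369 after a second quantile normalisation, 0.0493 and 0.0278 under the 2 filters on dim probe sets and 0.0160 with array weights. Its second probe set, 203084_at, lay close to the background bound at 5.18 to 5.49 and changed by -0.24 ± 0.09 in vehicle (SE, limma adjusted p = 0.0564). Erastin minus vehicle was -0.10 ± 0.07 in siTAZ cells (SE, limma adjusted p = 0.683) and -0.23 ± 0.07 in siNT cells (SE).

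**Figure D4:**
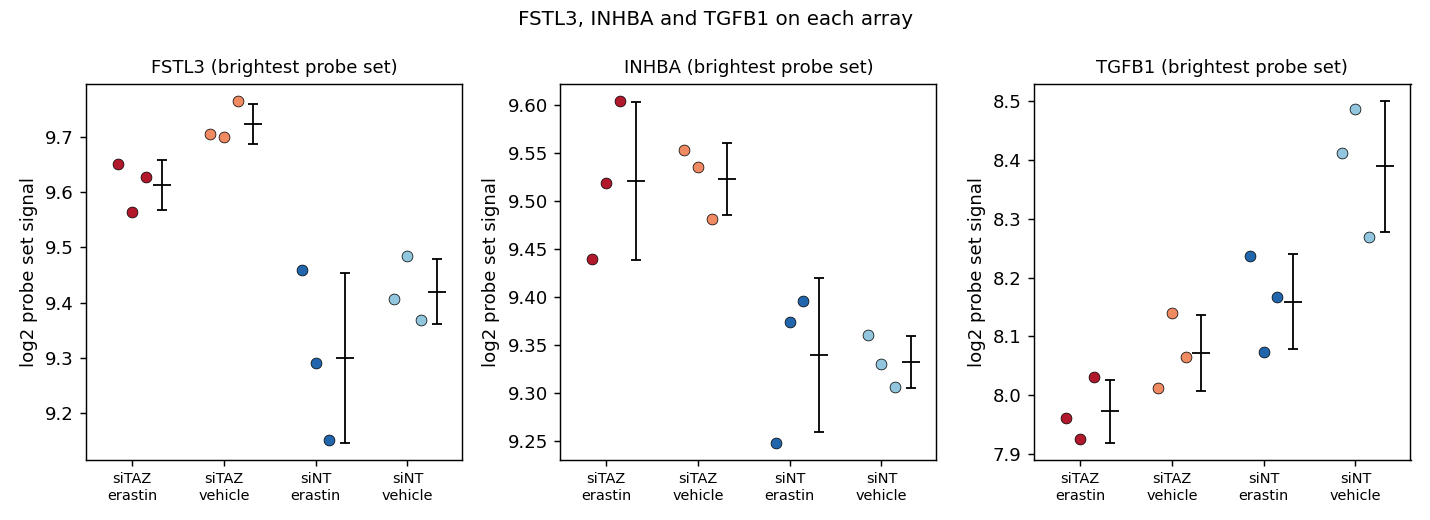
Log2 signal of the brightest FSTL3, INHBA and TGFB1 probe set on each of the 12 arrays, with the group mean and SD (n = 3) beside the points; the vertical axes do not start at 0. In both treatments the siTAZ arrays lie above the siNT arrays for FSTL3 and INHBA and below them for TGFB1, and erastin moves each gene by no more than 0.23 on the log2 scale.

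FST, INHBC, INHBB and TGFB2 were not called in either siTAZ comparison, for erastin in siTAZ cells or in the difference of the responses. The founding activin antagonist, FST, had group means of 6.21 to 6.43 on its brighter probe set, with a siTAZ minus siNT difference of -0.22 ± 0.11 in vehicle (SE, limma adjusted p = 0.194). INHBC had group means of 8.90 to 9.12 on 207688_s_at but 4.64 to 4.79 on 207687_at, so its 2 probe sets place it high above and under the background bound. Its brighter probe set gave -0.22 ± 0.11 in vehicle (SE, limma adjusted p = 0.192). With the actin covariate, under erastin it fell by 0.34 with siTAZ (limma adjusted p = 0.0374), whereas the fit without the covariate gave -0.03. In vehicle the covariate gave -0.21 and a call as well (limma adjusted p = 0.0447). The level of INHBC rests on which probe set is read, and its calls on the covariate.

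INHBB, the subunit of activin B, lay near background in every group at 4.40 to 4.70, with a siTAZ minus siNT difference of -0.30 ± 0.11 in vehicle (SE, limma adjusted p = 0.0717). TGFB2 lay near background on all 4 probe sets, whose group means ran from 2.37 to 4.02. The brightest, 220407_s_at, differed by -0.36 ± 0.14 between siTAZ and siNT cells in vehicle (SE, limma adjusted p = 0.0775). Neither gene's level, nor a change in it, could be read reliably at these signals.

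The genes that receive and pass on these signals were described from lists chosen by function. Of 13 receptors and coreceptors, siTAZ gave 3 rises and 1 fall in vehicle, and 4 rises and 1 fall under erastin. Of all genes, 13.9% were higher and 13% lower in vehicle, and 14.6% and 11.8% under erastin. TGFBR3, the coreceptor betaglycan that presents TGF-beta and binds inhibins, had log2 signals of 8.25, 8.32 and 8.25 in siTAZ vehicle cells, against 7.12, 7.24 and 7.07 in siNT vehicle cells. Under erastin it had 8.32, 8.15 and 8.27 in siTAZ cells, against 6.95, 6.59 and 7.01 in siNT cells. The groups were clearly apart, with log2 fold changes of 1.13 ± 0.10 in vehicle (SE, limma adjusted p = 4.27e-06) and 1.40 ± 0.10 under erastin (SE, limma adjusted p = 8.42e-07).

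The type I receptor gene ACVR1 rose by 0.56 ± 0.09 in vehicle and 0.50 ± 0.09 under erastin (SE, limma adjusted p = 0.000553 and 0.00132). ACVR1B, the type I receptor of activins, rose by 0.29 ± 0.05 and 0.38 ± 0.05 (SE, limma adjusted p = 0.00119 and 0.000206), and its second bright probe set, 205209_at, was also called. TGFBR2, the type II receptor of TGF-beta, fell by 0.24 in vehicle and fell by 0.35 under erastin (SE 0.07, limma adjusted p = 0.0311 and 0.00367), and its near-background second probe set was not called. The TGFBR2 call in vehicle was lost without any 1 of 5 vehicle arrays. With the actin covariate the list gave 3 rises and 0 falls under erastin, so TGFBR2 was no longer called lower there. For erastin in siTAZ cells, limma called 0 of the 13 receptors, and 0 had an unadjusted p under 0.05.

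**Figure D5:**
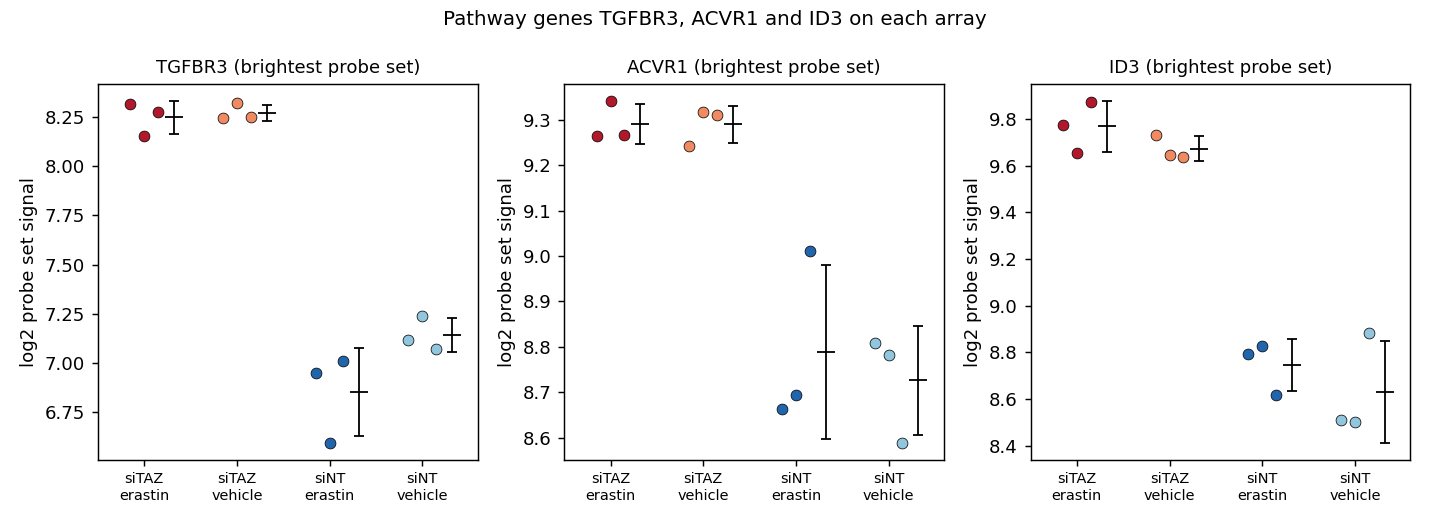
Log2 signal of the brightest TGFBR3, ACVR1 and ID3 probe set on each of the 12 arrays, with the group mean and SD (n = 3) beside the points; the vertical axes do not start at 0. The siTAZ arrays lie above the siNT arrays in every panel, and TGFBR3 is at 8.15 to 8.32 on the 6 siTAZ arrays and 6.59 to 7.24 on the 6 siNT arrays.

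Of 17 SMADs and SMAD regulators, siTAZ gave 3 rises and 2 falls in vehicle, and 5 rises and 3 falls under erastin, against 26.9% and 26.4% of all genes called. The erastin counts were 3 and 2 after the actin adjustment, and the genes that lost their call are not named. The p-values below are from the fit without that adjustment. PMEPA1, an inhibitor that sequesters receptor-activated SMADs, rose by 0.53 ± 0.08 in vehicle and 0.58 ± 0.08 under erastin (SE, limma adjusted p = 0.000479 and 0.000274). SMAD3, the SMAD activated by TGF-beta and activin receptors, had opposite calls on its 2 brightest probe sets. On 218284_at it fell by 0.71 in vehicle and fell by 0.62 under erastin, whereas on 205398_s_at it was called higher by 0.23 and 0.34, so the direction of SMAD3 depends on the probe set. SMURF2, a ubiquitin ligase of SMADs and receptors, in vehicle fell by 0.38 (SE 0.07, limma adjusted p = 0.000996). SMAD4, the shared partner of activated SMADs, under erastin fell by 0.72 (SE 0.16, limma adjusted p = 0.00467), and its second probe set, near background, was not called.

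Of 24 TGF-beta and SMAD target genes, siTAZ gave 8 rises and 3 falls in vehicle, and 7 rises and 3 falls under erastin, or 5 and 2 with the actin covariate. Of all genes, 13.9% were higher and 13% lower in vehicle, and 14.6% and 11.8% under erastin. The median log2 change of the list was 0.09 in vehicle, beside -0.01 over all genes, and 0.05 under erastin, beside 0.01. ID3, an inhibitor of basic helix-loop-helix factors, had log2 signals of 9.73, 9.64 and 9.64 in siTAZ vehicle cells, against 8.51, 8.50 and 8.88 in siNT vehicle cells. It rose by 1.04 ± 0.10 in vehicle and 1.02 ± 0.10 under erastin (SE, limma adjusted p = 1.20e-05 and 1.45e-05). FN1, which encodes fibronectin, rose by 0.92 ± 0.06 and 0.86 ± 0.06 (SE, limma adjusted p = 4.77e-07 and 8.93e-07), and all 6 of its probe sets were called in both treatments. Several of them, the brightest included, carry the suffix described for GDF15. Another, 214702_at, averaged 4.19 over the arrays, under the background bound. The list moved in both directions: BHLHE40, a transcriptional repressor, under erastin fell by 0.60 (SE 0.07, limma adjusted p = 6.90e-05). Leaving out siNT erastin replicate 2 or siTAZ erastin replicate 3 left 4 rises under erastin.

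Of 21 genes for ligand binding, latency and processing, siTAZ gave 4 rises and 1 fall in vehicle, and 2 rises and 0 falls under erastin, no larger a share than the 26.9% and 26.4% of all genes called. NBL1, an antagonist of bone morphogenetic proteins, rose by 0.42 ± 0.06 and 0.46 ± 0.06 (SE, limma adjusted p = 0.000186 and 0.000103). ITGAV, an integrin subunit that takes part in releasing latent TGF-beta, rose by 0.30 ± 0.07 and 0.21 ± 0.07 (SE, limma adjusted p = 0.00479 and 0.0345). With the actin covariate the list gave 1 rise under erastin, as it did without any 1 of 4 erastin arrays. NBL1, ITGAV or both thus lost their erastin call in each of these fits. Of 21 other ligands of the superfamily, 11 lay near background in all groups. BMP6, a bone morphogenetic protein, was the single siTAZ call among them, with measured log2 differences of 0.33 ± 0.09 in vehicle and 0.35 ± 0.09 under erastin (SE, limma adjusted p = 0.0188 and 0.0144). Its signal was at or under the background bound, with means of 5.30 in siTAZ vehicle cells and 4.97 in siNT vehicle cells, and 5.28 in siTAZ erastin cells and 4.93 in siNT erastin cells, so the size of that difference is not read. That call was lost without any 1 of 4 vehicle arrays in vehicle, and under erastin without any 1 of 2 erastin arrays or with the actin covariate. With the covariate the other ligands gave 0 rises and 1 fall under erastin. For erastin in siTAZ cells limma called 0 genes of these 5 lists. At an unadjusted p under 0.05 there were 4 target genes, 2 SMADs or regulators, 1 gene of ligand binding, 0 receptors and 0 other ligands. Of all probe sets, 9.04% passed that threshold, so nothing is read from these counts.

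The ATF4-driven genes, described because INHBE and GDF15 are known targets of the same stress response, held many more calls. For erastin 19 of 28 rose in siTAZ cells, against 0.343% of all genes, and 17 of 28 were higher in siNT cells, against 0.368%, with 0.493% of all genes called in either direction. There were 0 falls in either group. With the actin covariate 20 rose in siTAZ cells and 15 were higher in siNT cells. The siNT comparison is the one that chose INHBE, and nothing is read from its count. The list was chosen with earlier results of these data known, so its other counts, also those for silencing, are a description. Genes named from it were picked for the size of their called change, so their p-values are no independent evidence. The median log2 changes of the list were 0.55 in siTAZ and 0.47 in siNT cells, beside 0.01 and -0.00 over all genes. The count in siNT cells was 11 without siNT erastin replicate 1 and 11 to 15 over all fits that left out 1 array. SLC7A11, the erastin-blocked cystine importer, averaged 10.05 ± 0.04 in siTAZ erastin cells and 8.57 ± 0.03 in siTAZ vehicle cells (SD, n = 3 each). It averaged 9.72 ± 0.12 in siNT erastin cells and 8.85 ± 0.05 in siNT vehicle cells (SD, n = 3 each). It rose with erastin by 1.48 ± 0.06 in siTAZ cells (SE, limma adjusted p = 1.32e-07).

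Silencing gave the same list 20 falls and 1 rise in vehicle, and 18 falls and 1 rise under erastin, against 13% and 11.8% of all genes lower. With the actin covariate the list gave 14 falls under erastin. The median log2 changes were -0.51 and -0.36. DDIT4, an inhibitor of mTORC1, averaged 9.34 ± 0.17 in siTAZ erastin cells and 7.83 ± 0.11 in siTAZ vehicle cells (SD, n = 3 each). It averaged 11.27 ± 0.12 in siNT erastin cells and 9.75 ± 0.01 in siNT vehicle cells (SD, n = 3 each). With siTAZ it fell by 1.93 in both treatments (SE 0.09, limma adjusted p = 5.10e-08 in vehicle and 4.42e-08 under erastin) and rose with erastin by 1.52 in both siRNA groups. STC2, a secreted glycoprotein, fell by 1.23 with siTAZ in vehicle and fell by 0.75 under erastin (SE 0.06, limma adjusted p = 9.90e-08 and 4.24e-06). In siTAZ erastin cells DDIT4 and TRIB3 stayed under their levels in siNT vehicle cells, TRIB3 at 10.84 against 11.17. INHBE stood above its siNT vehicle level. So did SLC7A11, CHAC1 (7.59 against 7.13), CTH (8.27 against 7.83) and PCK2 (8.14 against 7.81), which are named from the ATF4 list. STC2 was about level, at 10.52 against 10.50.

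The genes whose brightest probe set followed INHBE most closely over the 12 arrays, among 6662 with a mean above the median, were GARS1 with a Pearson correlation of 0.992, SLC1A4 with 0.983, ASNS with 0.973, ATF4 with 0.973 and CEBPG with 0.970. GARS1 encodes glycyl-tRNA synthetase, SLC1A4 a neutral amino acid transporter, ASNS asparagine synthetase, and ATF4 and CEBPG bZIP transcription factors. The genes closest to GDF15, among 6661, were XBP1 with 0.965, TSC22D3 with 0.951, SLC3A2 with 0.950, RSL24D1 with 0.949 and SMAD7 with 0.941. The 12 arrays share their 4 groups, so these correlations follow the group means and are given without a test. The 5 genes nearest to INHBE and the 5 nearest to GDF15 were different genes, while INHBE and GDF15 themselves correlated at 0.863.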

How the data were processed

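The values are the log2 probe set signals that the authors deposited, computed by RMA in Affymetrix Expression Console, per the submitters' processing notes. For versions and genome build, the sources used here give nothing. Of 22277 probe sets, 62 controls, 1043 matching several genes and 2108 with no listed gene were left out. Of the 19064 kept, 19052 matched RefSeq by Entrez ID.

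Groups came from the sample titles. All 12 arrays entered 1 limma 3.58.1 fit (R 4.3.3) with a mean per group and 8 residual and 4.12 prior degrees of freedom. Adjusted p-values are Benjamini-Hochberg over 19064 probe sets, called under 0.05. The probe set with the highest 12-array mean stood for its gene in counts, and 4310 genes had more than 1. An exact permutation test of 3 against 3 arrays cannot go below 0.1 and was not used. The fit was tested on simulated data.

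Members and lists were chosen with earlier results of these data known. Named genes were the members, WWTR1, up to 4 called genes of a list per comparison with the largest change, and the 5 most correlated with INHBE and with GDF15. The alternatives were other normalisations and filters, moderation with trend and robust settings, array weights, the compared groups alone, a replicate block, an actin covariate, a minimum log2 change of 0.5 and leaving out each array. The actin covariate and left-out arrays for the lists, and the INHBE bound, were added after seeing the data. Listed genes that had no probe set here were not analysed here.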

Additional observations from a re-analysis of the deposited data

How the results depend on the processing

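No direction of a called value reversed. Counts of member genes and probe sets here include INHBE, for which nothing is read from a call. For siTAZ against siNT in vehicle, the number of member probe sets called was 7 after a second quantile normalisation, against 4. A minimum log2 change of 0.5 left 1 member gene, 1 member probe set and 1316 probe sets of all. Leaving out 1 array gave 3 to 5 member genes, 3 to 6 member probe sets and 3676 to 5114 probe sets of all.

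Under erastin, siTAZ against siNT called 1 member gene and 1 member probe set with only the compared groups in the fit. With the actin covariate it called 1 gene and 2 probe sets, and with the 0.5 minimum 0 and 0, beside 1349 of all. Leaving out 1 array gave 1 to 3 member genes, 1 to 3 member probe sets and 3781 to 4713 of all. Without INHBE, the member genes called were 3 of 8, and 1 to 3 when 1 array was left out.

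For erastin in siNT cells, all probe sets called were 125 and 213 without those under the 25th and 50th percentile, 182 with trend and robust settings, 215 with array weights, 12 with the compared groups alone, 37 with the replicate block and 34 with the 0.5 minimum, against 71. Member genes and probe sets called were 1 and 1 without the lower 50% and with the compared groups alone. Leaving out 1 array gave 1 to 2 member genes, 1 to 2 member probe sets and 27 to 57 of all.

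For erastin in siTAZ cells, all probe sets called were 140 without the lower 50%, 155 with trend and robust settings, 132 with array weights and 32 with the 0.5 minimum, against 56. Member genes and probe sets called were 0 and 0 without the lower 50%, where INHBE's own mean lies under the filter, and 2 and 2 with trend and robust settings, array weights or the actin covariate, where GDF15 was added. Leaving out 1 array gave 1 member gene and 33 to 78 of all. For the difference of the responses, member genes and probe sets called were 1 and 1 after a second quantile normalisation, with trend and robust settings and with array weights. The gene counted was INHBE, whose siNT response enters this difference, so nothing is read from it; the other 8 gave 0. All probe sets called were then 3, 10 and 4, and 3 without the lower 50%; leaving out 1 array gave 0 to 1. Other causes were not tested.

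Deviations of same-numbered arrays correlated at -0.43 to 0.36, above 0.1 in 4 of 18 pairs. The highest values were between the siTAZ and siNT erastin arrays, 0.36 for replicate 2 and 0.30 for replicate 3, with -0.09 for replicate 1. Whether the replicate numbers mark a shared batch was not tested. With the replicate block INHBA lost its calls (limma adjusted p = 0.0654 in vehicle and 0.0779 under erastin). INHBA also lost them when arrays were centred on their medians (0.0655 and 0.12).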
